A study of Mus musculus with 12 samples.

Results

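The 8 genes described here encode natural killer (NK) receptors and their companions: the killer lectin genes Klrk1, Klrd1, Klrc1, Klrb1c and Klrg1, the natural cytotoxicity receptor gene Ncr1, the interleukin receptor gene Il2rb and the transcription factor gene Eomes. They were taken by symbol from the probe sets that carry a single gene symbol, with the probe set of the highest mean standing for a gene. Of the 8 genes, 7 had such a probe set, out of 18193 genes on the arrays that had one. Klrb1c, the gene of the NK1.1 antigen, was represented only by a probe set that also names Klrb1b and is given no value. Klrk1, Klrd1, Klrc1, Klrg1, Il2rb and Eomes lay among the 12755 genes bright enough to be tested, and Ncr1 lay just under that limit.

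Total liver RNA of 12 BALB/c mice was hybridised to 12 arrays, in 4 groups of 3 mice. The WT group carried neither deletion, the group labelled TGFB KO lacked Tgfb1, the group labelled INFko TGFB+ (the spelling of the label) lacked Ifng and kept Tgfb1, and the group labelled IFNko TGFB1 KO lacked both genes. The sources used here do not give age, sex or the number of Tgfb1 copies in INFko TGFB+ mice. The series concerns acute autoimmune hepatitis of the mouse, which the loss of the cytokine TGF-beta 1 brings about on this strain, and the groups ask what each loss does to liver RNA with the other gene present or absent.

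NKG2D, the product of Klrk1, activates killer cells when it meets stress-induced relatives of MHC class I, and signals through the adaptor proteins made from Hcst and Tyrobp. CD94, from Klrd1, pairs with NKG2A, from Klrc1, to form an inhibitory receptor, while KLRG1 inhibits on binding cadherins and NKp46, from Ncr1, activates. The liver is rich in NK cells and in resident type 1 innate lymphoid cells, and activated CD8 T cells can carry Klrk1, Klrd1, Klrc1, Klrg1, Il2rb and Eomes too. In whole liver, a change in the number of cells that express a gene and a change in RNA per cell cannot be told apart.

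Klrd1, Klrk1 and Klrc1 lie near each other in the NK gene complex on chromosome 6, with Klrb1c and Klrg1 on the same chromosome. Ncr1 is on chromosome 7, Eomes on chromosome 9 and Il2rb on chromosome 15. The 250 bases before the first listed start of 4 of the genes are shown from RefSeq (GRCm38.p6), 5′ to 3′ on the strand of the gene, because Klrk1 and Klrc1 rose in both comparisons of Tgfb1 loss, Eomes in one and Ncr1 in neither. The windows are chr6:129623865-129624114 on the minus strand for Klrk1, chr6:129678974-129679223 on the minus strand for Klrc1, chr7:4337465-4337714 on the plus strand for Ncr1 and chr9:118477939-118478188 on the plus strand for Eomes. Capitals mark the core motif of RUNX factors, TGTGGT, on either strand.
Klrk1: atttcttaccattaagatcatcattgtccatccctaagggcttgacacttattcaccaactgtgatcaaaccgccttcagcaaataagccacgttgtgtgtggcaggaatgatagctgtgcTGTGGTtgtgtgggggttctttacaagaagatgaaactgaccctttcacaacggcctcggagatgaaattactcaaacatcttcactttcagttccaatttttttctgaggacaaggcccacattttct
Klrc1: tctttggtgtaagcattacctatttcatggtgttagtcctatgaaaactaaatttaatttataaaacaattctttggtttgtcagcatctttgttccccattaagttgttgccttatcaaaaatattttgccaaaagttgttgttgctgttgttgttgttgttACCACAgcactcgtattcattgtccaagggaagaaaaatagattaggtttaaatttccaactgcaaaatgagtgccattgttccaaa
Ncr1: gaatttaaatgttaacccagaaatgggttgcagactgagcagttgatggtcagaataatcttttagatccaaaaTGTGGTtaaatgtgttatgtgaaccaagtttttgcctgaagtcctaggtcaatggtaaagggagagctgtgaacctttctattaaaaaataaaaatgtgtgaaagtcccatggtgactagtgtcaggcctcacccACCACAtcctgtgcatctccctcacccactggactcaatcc
Eomes: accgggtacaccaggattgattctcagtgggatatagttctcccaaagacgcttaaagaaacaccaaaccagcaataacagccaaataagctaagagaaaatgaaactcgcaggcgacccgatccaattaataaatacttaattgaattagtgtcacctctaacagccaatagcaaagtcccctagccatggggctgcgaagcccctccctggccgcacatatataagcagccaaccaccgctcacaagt
The RUNX core occurred once in the Klrk1 window, at base -129 from the start, and once in the Klrc1 window, at base -87 on the other strand. The Ncr1 window held 2 matches and the Eomes window 0, and of all 32851 such windows in the mouse 14.0% held the motif. Klrb1c was the only other of the 8 genes with a window, and it too held a match, which made 4 of 5. None of the 5 windows held the T-box motif AGGTGTGA, found in 1.12% of all windows, or the STAT motif TTCNNNGAA, found in 7.02%. The motifs were chosen with the values of the genes known, and a match is a stretch of letters, not a site shown to be bound.

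The deposited values are signal intensities on a linear scale, and levels below are these signals. Array medians lay between 33.8 and 42.6 on 11 arrays, whereas the array IFNko TGFB1 KO 1 stood at 61.3. Its rank correlation with the others was 0.754 to 0.809, against 0.816 to 0.912 among the other 11. Changes of the receptor genes from INFko TGFB+ to IFNko TGFB1 KO, and counts of most gene lists in that comparison, are therefore also given without it. Tgfb1 signal was 319 ± 184 in WT, 68.1 ± 21.2 in TGFB KO, 188 ± 29.5 in INFko TGFB+ and 40.2 ± 13.9 in IFNko TGFB1 KO (mean ± SD, n = 3), in the direction of the labels. Ifng signal was 18.4 ± 10.9 in WT, 127 ± 64.5 in TGFB KO and 5.36 ± 3.72 in INFko TGFB+ but 60.9 ± 20.5 in the arrays labelled IFNko TGFB1 KO, so Ifng RNA went against that last label. The sources used here do not say whether the Ifng probes lie in the deleted part, and if they lie outside it this checks nothing. Statements on that group are therefore on arrays by their label.

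Loss of Tgfb1 went with more RNA of the lectin receptors and of Il2rb on both Ifng backgrounds. With Ifng present, Klrk1, Klrd1, Klrc1, Klrg1 and Il2rb rose against WT, by 0.69 to 2.12 on the log2 scale, and with Ifng deleted the same 5 genes and Eomes rose, by 1.23 to 2.31. Ncr1 passed the test in neither comparison. Klrd1 was the one gene of the 7 that also passed the test in the arrays labelled IFNko TGFB1 KO against TGFB KO. Fold changes are differences of mean log2(signal + 16) after quantile normalization, given with their standard error (SE). They come from a limma fit over all 12 arrays, and p-values were adjusted by Benjamini-Hochberg for the 12755 genes, with 0.05 as the threshold.

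**Figure D1:**
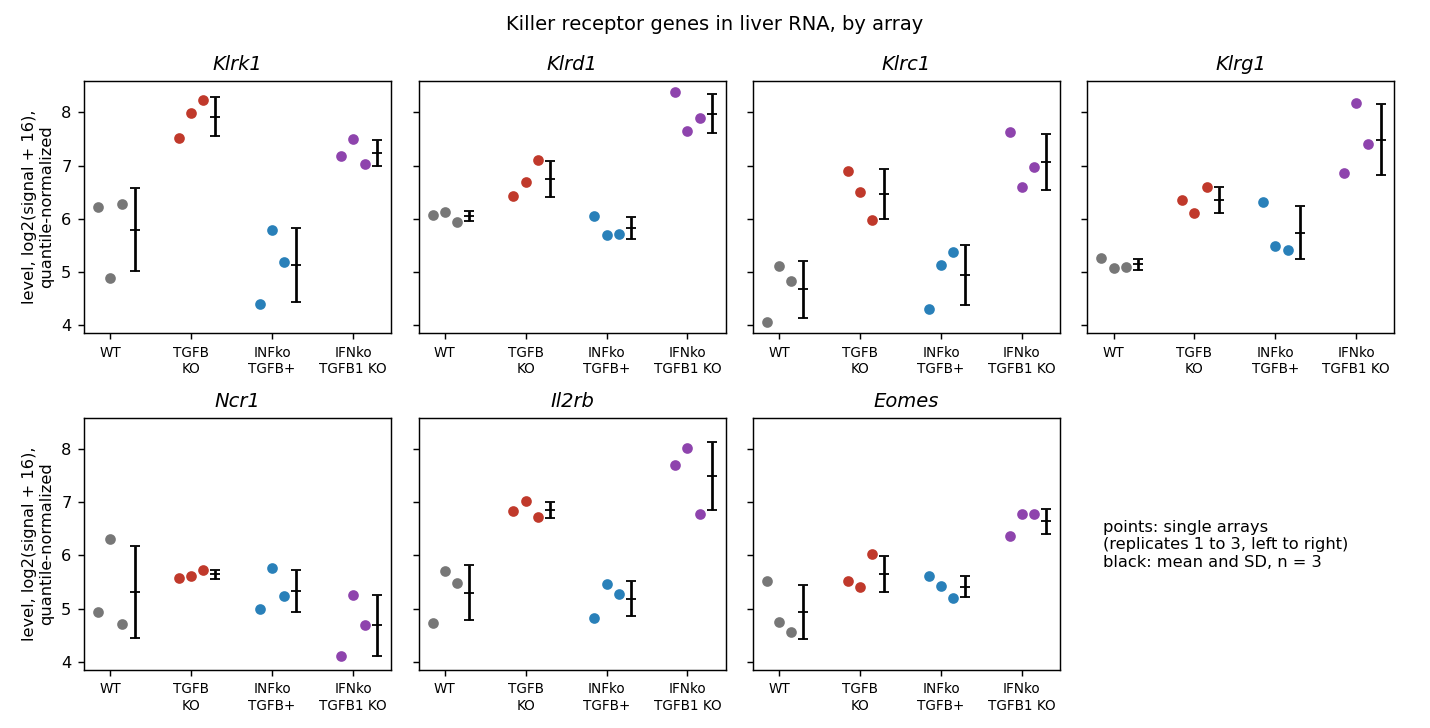
Level of each of the 7 genes, log2(signal + 16) after quantile normalization (y axis), in the 12 arrays by group (x axis). Points are single arrays and black marks are the mean and SD of 3 arrays. The mean of Klrk1 was highest in TGFB KO, whereas the means of Klrd1, Klrc1, Klrg1, Il2rb and Eomes were highest in IFNko TGFB1 KO, and Ncr1 shows no separate group. Levels of different genes are not comparable.

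Klrk1 signal was 60.7, 13.8 and 56.7 in the WT arrays and 171, 245 and 289.6 in TGFB KO, against 4.66, 34.8 and 18.3 in INFko TGFB+ and 150.3, 182 and 117 in IFNko TGFB1 KO. Every array without Tgfb1 was above every array with it, on both backgrounds. The rise was 2.12 ± 0.41 with Ifng present (limma adjusted p = 0.00325) and 2.11 ± 0.41 with Ifng deleted (limma adjusted p = 0.00322). The difference between these effects was -0.0047 (95% confidence interval -1.27 to 1.26, limma adjusted p = 0.999), an interval that still allows a change of more than 1 log2 unit either way. Without the array IFNko TGFB1 KO 1 the rise with Ifng deleted was 2.14 ± 0.47 (limma adjusted p = 0.00832). The mean of Klrk1 was lower in IFNko TGFB1 KO than in TGFB KO, with overlapping signals (182 and 171 at the edges), and the difference of -0.67 ± 0.41 did not pass the test (limma adjusted p = 0.379; 0.525 without the array IFNko TGFB1 KO 1).

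Klrd1 signal was 54.2, 51.6 and 42.3 in WT, 69.2, 86.4 and 120.4 in TGFB KO, 47.9, 30.9 and 32.7 in INFko TGFB+ and 304.8, 203 and 219.9 in IFNko TGFB1 KO. The arrays labelled IFNko TGFB1 KO were the highest, TGFB KO followed without overlap, and the groups with Tgfb1 overlapped at the bottom. With Ifng deleted Klrd1 rose by 2.15 ± 0.23 (limma adjusted p = 9.99e-05), or by 1.95 ± 0.22 without the array IFNko TGFB1 KO 1 (limma adjusted p = 0.000333). With Ifng present it rose by 0.69 ± 0.23 (limma adjusted p = 0.0438). That call was kept in 9 of 23 alternative settings, with adjusted p from 0.0239 to 0.153 in limma, and was lost without the filter on dim genes (limma adjusted p = 0.0731). Leaving out any 1 WT or INFko TGFB+ array, TGFB KO 2, TGFB KO 3 or IFNko TGFB1 KO 3 also ended it.

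The CD94 gene had the largest difference of effects among the 7 genes. Its rise was larger with Ifng deleted by 1.45 ± 0.32 (95% confidence interval 0.76 to 2.15), but over 12755 genes this missed the threshold (limma adjusted p = 0.0678; range over 22 alternatives 0.0407 to 0.194). Without the array IFNko TGFB1 KO 1 the difference was 1.25 ± 0.29 (limma adjusted p = 0.109), and without IFNko TGFB1 KO 2 it passed at 1.61 ± 0.31 (limma adjusted p = 0.0438). Directly against TGFB KO, the arrays labelled IFNko TGFB1 KO held more Klrd1 RNA by 1.22 ± 0.23 (limma adjusted p = 0.01). That call held without the array IFNko TGFB1 KO 1 at 1.02 ± 0.22 (limma adjusted p = 0.0322) and was lost when only these 2 groups were fitted (limma adjusted p = 0.0874).

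Klrc1, which encodes the inhibitory partner of CD94, was dim where Tgfb1 was present. Its signal was 0.97, 19.4 and 11.2 in WT and 3.33, 16.3 and 22.9 in INFko TGFB+, against 103, 72.7 and 44.5 in TGFB KO and 195.4, 89.4 and 112 in IFNko TGFB1 KO. The groups without Tgfb1 overlapped each other and lay wholly above the other pair. Klrc1 rose by 1.79 ± 0.38 with Ifng present (limma adjusted p = 0.00553) and by 2.12 ± 0.38 with Ifng deleted (limma adjusted p = 0.00217), or by 1.84 ± 0.39 without the array IFNko TGFB1 KO 1 (limma adjusted p = 0.00724). The size depends on the pseudocount, as the former was 3.23 with a pseudocount of 1 and 0.89 with 64, while both kept the call. A second, dimmer probe set of Klrc1 had mean signals of 11.4, 58.4, 7.06 and 79.9 in WT, TGFB KO, INFko TGFB+ and IFNko TGFB1 KO, the same side of the split.

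Klrg1, the cadherin-binding receptor of mature killer cells, had signals of 26.9, 18.4 and 16.8 in WT and 64.3, 49.8 and 79.3 in TGFB KO. It had 59.9, 24.8 and 23.9 in INFko TGFB+ and 125, 292.6 and 156 in IFNko TGFB1 KO. The arrays labelled IFNko TGFB1 KO were the highest in every case, and 1 INFko TGFB+ array reached into the range of TGFB KO. Klrg1 rose by 1.21 ± 0.32 with Ifng present (limma adjusted p = 0.0182), a call lost without WT 2, TGFB KO 1 or TGFB KO 3 (limma adjusted p = 0.0538, 0.0517 and 0.0652). With Ifng deleted it rose by 1.74 ± 0.32 (limma adjusted p = 0.0026) and by 2.06 ± 0.30 without the array IFNko TGFB1 KO 1 (limma adjusted p = 0.00128). Its level in IFNko TGFB1 KO exceeded that in TGFB KO by 1.13 ± 0.32, short of the threshold with all arrays (limma adjusted p = 0.0696) and past it without the array IFNko TGFB1 KO 1 (1.44 ± 0.30, limma adjusted p = 0.0301).

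Ncr1 was called in neither comparison of Tgfb1 loss, and whether its changes differed from those of the other genes was not tested. Its signal was 17.6, 58.8 and 8.74 in WT, 31.0, 30.5 and 34.6 in TGFB KO, 14.9, 33.7 and 19.4 in INFko TGFB+ and 4.19, 20.5 and 9.55 in IFNko TGFB1 KO. All neighbouring groups in the order of its means overlapped. In the fit without the filter, over 18193 genes, its change was 0.33 ± 0.40 with Ifng present (limma adjusted p = 0.674) and -0.64 ± 0.40 with Ifng deleted (limma adjusted p = 0.346). With 1 array left out the former ran from 0.03 to 0.82 (limma adjusted p = 0.152 to 0.981). The latter then ran from -0.93 to -0.35 (limma adjusted p = 0.188 to 0.686). Its signal in IFNko TGFB1 KO lay below TGFB KO in every array, and the difference of -0.96 ± 0.40 missed the threshold too (limma adjusted p = 0.274). Without the array IFNko TGFB1 KO 1 the changes were -0.35 ± 0.42 against INFko TGFB+ and -0.66 ± 0.42 against TGFB KO (limma adjusted p = 0.686 and 0.548). At this brightness a change of NKp46 RNA may not be detectable.

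Il2rb encodes the beta chain through which interleukin 2 and interleukin 15 signal, the latter a survival factor of NK cells. Its signal was 12.2, 36.2 and 26.9 in WT, 97.2, 114.7 and 88.3 in TGFB KO, 11.7, 24.1 and 20.5 in INFko TGFB+ and 202, 262 and 96.2 in IFNko TGFB1 KO. The groups without Tgfb1 overlapped each other and none of their arrays fell into the range of the rest. Il2rb rose by 1.56 ± 0.33 with Ifng present (limma adjusted p = 0.00561) and by 2.31 ± 0.33 with Ifng deleted (limma adjusted p = 0.000614), or by 2.21 ± 0.38 without the array IFNko TGFB1 KO 1 (limma adjusted p = 0.00244). On its other probe set the first change was 1.56 ± 0.48 and missed the threshold over 34945 probe sets (limma adjusted p = 0.0636).

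Eomes, a T-box factor of NK cells and of effector CD8 T cells, had signals of 34.5, 10.5 and 6.46 in WT, 29.0, 24.5 and 46.6 in TGFB KO, 30.7, 23.2 and 18.8 in INFko TGFB+ and 94.5, 104.8 and 95.1 in IFNko TGFB1 KO. The 3 arrays labelled IFNko TGFB1 KO stood clear of all others, which overlapped. With Ifng deleted Eomes rose by 1.23 ± 0.26 (limma adjusted p = 0.00569), or by 1.36 ± 0.29 without the array IFNko TGFB1 KO 1 (limma adjusted p = 0.00708). With Ifng present the change of 0.71 ± 0.26 did not pass (limma adjusted p = 0.0744), although it did without the array WT 1 (0.99 ± 0.24, limma adjusted p = 0.0152). The difference between the effects was 0.52 ± 0.37 (95% confidence interval -0.29 to 1.34, limma adjusted p = 0.643), so a call in one comparison and not in the other does not show unequal effects. Against TGFB KO, Eomes was higher in IFNko TGFB1 KO by 1.00 ± 0.26, at an adjusted p of 0.0518 in limma, and past the threshold without WT 1, WT 3 or TGFB KO 3 (limma adjusted p = 0.0237, 0.047 and 0.0441). Without the array IFNko TGFB1 KO 1 it was 1.13 ± 0.29 (limma adjusted p = 0.0649).

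**Figure D2:**
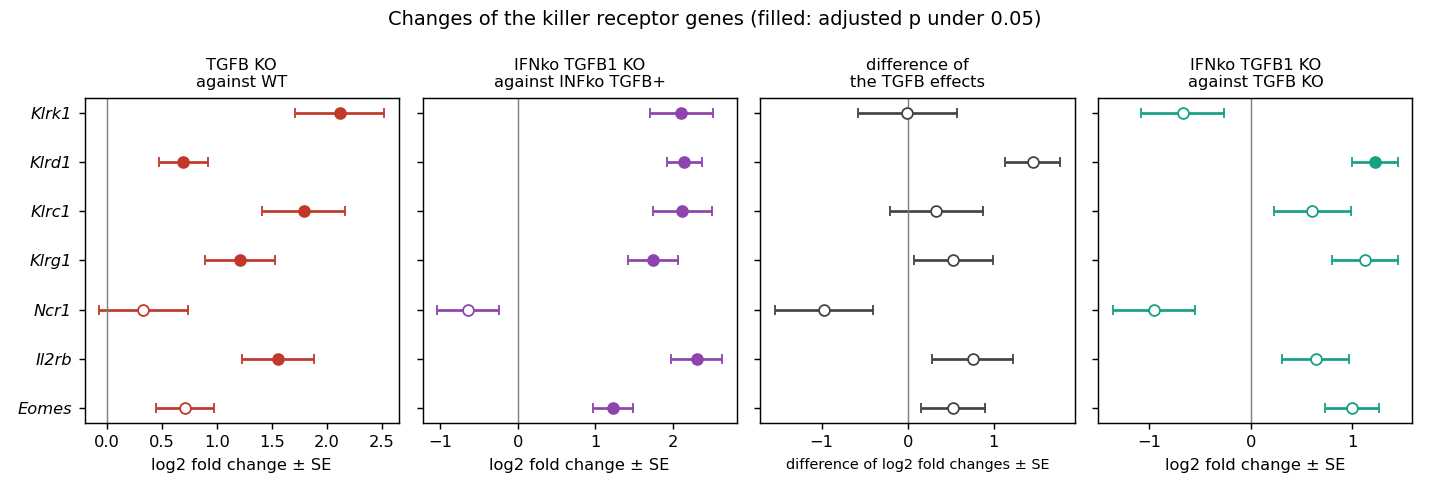
Log2 fold change of each of the 7 genes with its SE (x axis) in 4 comparisons, 1 panel each. Filled points passed an adjusted p of 0.05. With Ifng present 5 genes passed and with Ifng deleted 6. No gene passed for the difference of the effects, and Klrd1 alone passed for IFNko TGFB1 KO against TGFB KO.

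Counted together, 5 of the 6 genes tested rose in TGFB KO against WT, where 12.2% of all genes tested rose. In IFNko TGFB1 KO against INFko TGFB+ 6 of 6 rose, where 12.7% of all genes did. The filter favours genes that are high in some group, so the count over all 7 genes with a probe set was made without it. It gave 4 of 7 against 7.57% of 18193 genes in the former comparison and 6 of 7 against 7.89% in the latter. The median change of the 7 genes was 1.21 with Ifng present, beside -0.05 over all genes, and 2.11 with Ifng deleted, beside 0.03. On the normalized log2 scale, on which all counts of overlap over all genes were made, arrays of the compared groups did not overlap for 5 of 7 genes in the former, where 14.5% of all genes were higher without overlap, and for 6 of 7 in the latter, where 17.7% were.

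The difference of the effects was called for 0 of 6 genes by limma, with 1 of them (Klrd1) under an unadjusted p of 0.05, where 0.87% of all genes were called. In IFNko TGFB1 KO against TGFB KO 1 of 6 genes was called higher, where 2.54% of all genes were. On the normalized scale arrays of these groups did not overlap for Klrd1, Klrg1 and Eomes, which were higher, and for Klrk1 and Ncr1, which were lower. For Klrk1 the gap was narrow and the deposited signals overlapped. Of all genes, 11.1% and 8.4% lay apart in these directions. Deletion of Ifng with Tgfb1 present changed none of the 6 by limma, and 0 of them had an unadjusted p under 0.05. In that comparison limma called 0.0% of all genes and 649 had an unadjusted p under 0.05. Its largest estimates were Klrk1 at -0.67 ± 0.41 and Klrg1 at 0.59 ± 0.32, and for Klrg1 the normalized levels of the groups did not overlap, as for 5.78% of all genes, whereas the deposited signals did.

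The genes differed in how they varied over the 12 arrays. Pearson correlations, over arrays that share the group differences, were highest for Klrg1 with Eomes (0.93) and for Klrc1 with Il2rb (0.92). Klrk1 stood at 0.62 with Klrd1 and 0.70 with Klrc1, which stood at 0.81 with each other. With Eomes, Klrg1 and Il2rb it stood at 0.50, 0.55 and 0.78. Differences between correlations were not tested. Ncr1 ran from -0.47 to -0.08 with the other 6. The closest genes were sought among those tested, leaving out symbols of predicted, clone or accession type and any starting with Gm. Closest to Klrd1 were Cxcr6 (0.98), a chemokine receptor of liver-resident lymphocytes, Tmem165 and Krt8. The closest to Il2rb were Crip1 (0.97), Cd82 and Nkg7, a cytotoxic granule gene, and the closest to Eomes were Eml4 (0.93), Klrg1 and Ikzf3. Klrk1 was nearest to Tmem268 (0.96), Bmper and Ddhd1, Klrc1 to Hsp90aa1 (0.97), Pdgfc and Rps6ka3, Klrg1 to Rpl6 (0.96), Rps19 and Gusb, and Ncr1 to Zfp358 (0.91), Ccn4 and Gpr146.

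The other killer lectin genes were mostly dim, and whether this strain carries each of them was not checked. Of 21 listed relatives of the Klra, Klrb1, Klrc and Klre type, 12 had a single-symbol probe set and 4 were bright enough to be tested. Klra2, a Ly49-type receptor gene, rose with Ifng present by 1.86 ± 0.41 (limma adjusted p = 0.0066), 1 of 4, where 12.2% of all genes rose. None of the 4 was called in IFNko TGFB1 KO against INFko TGFB+, where Klra2 changed by an estimated 0.41 ± 0.41 (limma adjusted p = 0.503). Klra2 fell by 2.11 from TGFB KO to IFNko TGFB1 KO (limma adjusted p = 0.0125), a direction in which 2.82% of all genes were called. It lost this call with array weights (limma adjusted p = 0.0666). In the fit without the filter the call was also lost without IFNko TGFB1 KO 1, TGFB KO 1 or TGFB KO 3. Its difference of effects was -1.45 ± 0.58 and did not pass (limma adjusted p = 0.346). Which cells of the liver carried Klra2 RNA was not tested. The summed signal of the 12 genes ran from 96.6 to 213 in WT, 249 to 287.9 in TGFB KO, 121 to 190.1 in INFko TGFB+ and 169 to 233 in IFNko TGFB1 KO.

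Of 6 neighbouring genes of the NK gene complex the brighter 3 were called and the dimmer 3 were not, and differences between neighbours were not tested. In the order Klre1, Klrd1, Klrk1, Klrc3, Klrc2, Klrc1 on chromosome 6, Klre1, Klrc3 and Klrc2 lay below the filter and were read from the fit without it. Klre1 changed by -0.03 ± 0.36 and 0.02 ± 0.36 with Ifng present and deleted, and Klrc3 by -0.05 ± 0.19 and -0.59 ± 0.19 (limma adjusted p = 0.0539 for the latter). Klrc2, the activating relative of Klrc1, had changes of 0.41 ± 0.23 and 0.53 ± 0.23 (limma adjusted p = 0.296 and 0.158). Changes of dim genes are understated on this scale, and in the fit without the filter the Klrd1 call with Ifng present was lost as well. Cross-hybridisation between these related genes was not tested.

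**Figure D3:**
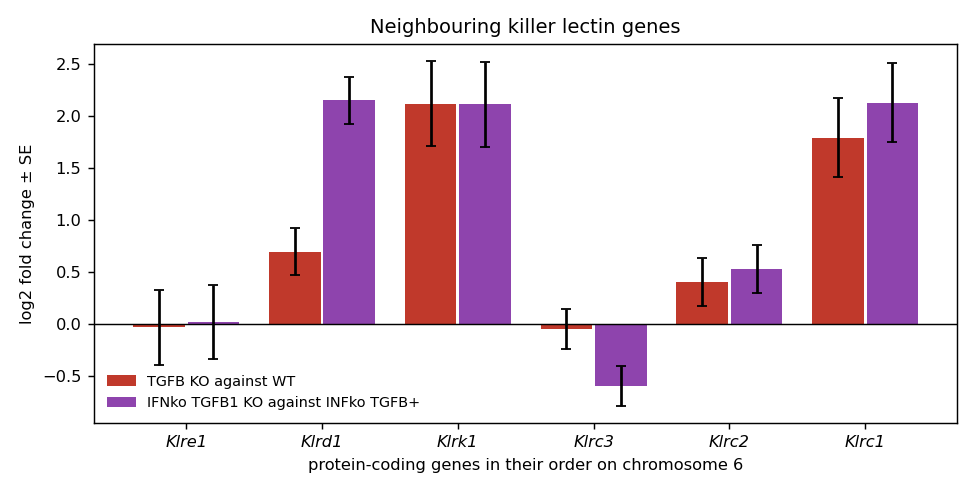
Log2 fold change with its SE (y axis) of 6 neighbouring killer lectin genes in their order on chromosome 6 (x axis, not to scale), with Ifng present (red) and deleted (purple). Klrd1, Klrk1 and Klrc1 passed the threshold in both comparisons with the filter, and Klre1, Klrc3 and Klrc2, which are dim and were read from the fit without the filter, passed in neither.

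Most of the listed adaptors and enzymes that carry receptor signals rose in both comparisons. Of 16 listed genes 13 were tested, and 11 rose with Ifng present and 13 with Ifng deleted, with median changes of 1.88 and 1.65 (all 13 with Ifng deleted also without the array IFNko TGFB1 KO 1). Of all genes tested 12.2% and 12.7% rose. Without the filter 12 and 14 of the listed genes rose. The 13 with Ifng deleted became 12 to 13 with 1 array left out. With the arrays centred on their medians they became 10, where 7.74% of all genes rose. The genes not called with Ifng present were Hcst, the NKG2D adaptor DAP10, at 0.70 ± 0.30 (limma adjusted p = 0.115), and Zap70, a kinase of T cell and NK cell receptors, at 0.09 ± 0.21 (limma adjusted p = 0.796). The Hcst change passed in 3 of 23 alternatives. Zap70 was called lower with Ifng present when its probe sets were averaged, at -0.59 (limma adjusted p = 0.0465). With Ifng deleted Hcst rose by 1.63 ± 0.30 (limma adjusted p = 0.00256) and Zap70 by 0.81 ± 0.21 (limma adjusted p = 0.0139). The Zap70 call was lost in 4 of 23 alternatives. Among them were the average of its probe sets, at -0.0154, median centring and leaving out INFko TGFB+ 2 (limma adjusted p = 0.965, 0.0769 and 0.0674). Tyrobp, the DAP12 adaptor of activating receptors, rose by 2.69 ± 0.21 and 2.68 ± 0.21 (limma adjusted p = 7.88e-06 and 1.78e-05). Fcer1g, the adaptor of NKp46 and of Fc receptors, rose by 3.23 ± 0.25 and 2.65 ± 0.25, Lcp2, the scaffold SLP-76, by 2.75 ± 0.20 in both, and Ptpn6, the phosphatase SHP-1 recruited by inhibitory receptors, by 1.88 ± 0.16 and 1.18 ± 0.16. These adaptors are also used by macrophages. The 10 listed macrophage markers, Marco and C1qb among them, rose in both comparisons (10 of 10 each). Their summed signal was 6834 to 8832 in WT and 41194 to 44307 in TGFB KO, and 6933 to 7003 in INFko TGFB+ and 27573 to 38526 in IFNko TGFB1 KO. Their part in the adaptor result was not tested.

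Among 15 listed ligand genes 4 were tested. B2m, the light chain of MHC class I, rose with Ifng present by 0.88 ± 0.15 (limma adjusted p = 0.00165), 1 of 4, where 12.2% of all genes rose. With Ifng deleted its change was -0.15 ± 0.15, and it fell by 0.97 from TGFB KO to IFNko TGFB1 KO (limma adjusted p = 0.00371), a call lost when only these groups were fitted (limma adjusted p = 0.0658). The difference of the B2m effects, -1.03, missed the threshold (limma adjusted p = 0.0522). It passed in 5 of 22 alternatives: with array weights, the 60th percentile filter, an intensity trend or a pseudocount of 64, and without TGFB KO 3 (limma adjusted p = 0.0122 to 0.158 over the 22). Cdh2, the N-cadherin gene whose product KLRG1 can bind, fell by 1.00 with Ifng present (limma adjusted p = 0.0182), where 11.9% of all genes fell. That call was lost without WT 1, WT 2, TGFB KO 1 or TGFB KO 3 (limma adjusted p = 0.0544, 0.0614, 0.0569 and 0.0615). The NKG2D ligand genes H60c and Ulbp1 lay below the filter.

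Il15 and its presenting receptor gene Il15ra were not called higher in either comparison. Of 12 listed genes of the interleukin 2 and 15 axis 9 were tested. With Ifng present Socs1, a brake on cytokine signals, rose by 1.74 ± 0.27 (limma adjusted p = 0.000836) and Cish fell by 0.92 (limma adjusted p = 0.0328). That 1 of 9 in each direction is near the 12.2% and 11.9% of all genes that rose and fell. With Ifng deleted the Socs1 change of 0.69 ± 0.27 missed the threshold (limma adjusted p = 0.0828), but passed without the array IFNko TGFB1 KO 1 (limma adjusted p = 0.0461). Socs1 fell by 2.06 from TGFB KO to IFNko TGFB1 KO (limma adjusted p = 0.00116), where 2.82% of all genes fell. Its difference of effects did not pass (limma adjusted p = 0.299). The Cish call was lost in 8 of 23 alternatives, among them leaving out WT 2, WT 3 or any 1 TGFB KO array (limma adjusted p = 0.0501 to 0.111). With Ifng deleted 4 genes fell, where 13.1% of all genes did, and 1 rose, where 12.7% did. The 4 became 3 without the array IFNko TGFB1 KO 1, with 3 genes then rising, and 1, 1 and 2 without INFko TGFB+ 1, 2 and 3. Il15 fell by 0.96 (limma adjusted p = 0.0284) and Il15ra by 2.10 (limma adjusted p = 0.024). Leaving out any 1 INFko TGFB+ array ended both calls, with adjusted p of 0.0714 to 0.0816 for Il15 and 0.0529 to 0.0773 for Il15ra in limma. Stat5a fell by 0.84 and Stat5b by 0.77 (limma adjusted p = 0.0116 and 0.0372). The Stat5b call was lost in 6 of 23 alternatives, among them leaving out INFko TGFB+ 1 or 2 or IFNko TGFB1 KO 1 or 3 (limma adjusted p = 0.0828, 0.143, 0.0808 and 0.0955). Jak1 rose by 0.87 ± 0.20 (limma adjusted p = 0.00785) except with the arrays centred on their medians (limma adjusted p = 0.278).

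Of 13 listed transcription factor genes of NK and cytotoxic cells 10 were tested. Of these 7 rose with Ifng present and 5 with Ifng deleted (6 without the array IFNko TGFB1 KO 1 or without the filter). Of all genes tested 12.2% and 12.7% rose. The count of 7 was 4 without the filter or without WT 1, WT 3, TGFB KO 1 or any 1 INFko TGFB+ array, and 3 without TGFB KO 2. Prdm1, the gene of Blimp-1, rose by 2.09 ± 0.28 and 1.71 ± 0.28 (limma adjusted p = 0.000358 and 0.00147), and Id2, required for innate lymphoid cells, by 1.48 ± 0.27 and 1.42 ± 0.27. Tbx21, the gene of T-bet, a T-box relative of Eomes, had the same calls as Eomes. It rose with Ifng deleted by 1.72 ± 0.37 (limma adjusted p = 0.00593) and its change of 1.01 ± 0.37 with Ifng present missed the threshold (limma adjusted p = 0.0708). Ikzf3, the Aiolos gene, rose by 1.45 ± 0.36 and 2.49 ± 0.36 (limma adjusted p = 0.0137 and 0.00069). The former call was lost without WT 3 or TGFB KO 2 (limma adjusted p = 0.0517 and 0.0503).

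Among 22 listed surface genes of NK cells and type 1 innate lymphoid cells 17 were tested, of which 11 rose with Ifng present (7 without WT 3) and 10 with Ifng deleted. Of all genes tested 12.2% and 12.7% rose. Without the filter the counts were 9 and 10. Cxcr6 rose by 1.36 ± 0.30 and 3.65 ± 0.30 (limma adjusted p = 0.00662 and 2.12e-05), and Cd7 by 1.89 ± 0.37 and 3.01 ± 0.37. Cxcr3, the receptor of interferon-induced chemokines, rose by 1.18 ± 0.30 and 2.68 ± 0.30. Il18rap, a chain of the interleukin 18 receptor, rose by 0.99 ± 0.28 and 2.41 ± 0.28. The calls of the last pair with Ifng present were lost without some arrays: Cxcr3 without WT 1, WT 2 or TGFB KO 1 (limma adjusted p = 0.055, 0.053 and 0.051), Il18rap without WT 1, WT 3 or TGFB KO 1 (limma adjusted p = 0.0605, 0.0826 and 0.0932). Fcgr3, the CD16 gene, which macrophages express as well, rose by 3.53 ± 0.25 and 2.77 ± 0.25. Tnfsf10, the TRAIL gene, rose with Ifng present by 1.75 ± 0.33 (limma adjusted p = 0.00309) and changed by 0.20 ± 0.33 with Ifng deleted (limma adjusted p = 0.714), a difference of effects that missed the threshold (-1.56, limma adjusted p = 0.204). Itga1, Itga2, Cd96 and Cd160 of this list were called in neither comparison, and Cd226, S1pr5 and Il12rb2 lay below the filter. The integrin gene Itga1 changed by -0.30 ± 0.17 and -0.10 ± 0.17, and Itga2 by 0.02 ± 0.35 and -0.03 ± 0.35.

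Markers of T cells, which can express most of the receptor genes, rose in the same livers. Of 12 listed genes 10 were tested. With Ifng present 9 rose and with Ifng deleted 10, where 12.2% and 12.7% of all genes did. In IFNko TGFB1 KO 6 were higher than in TGFB KO, where 2.54% of all genes were. Without the filter the counts were 9, 10 and 6. The last count was 4 without the array IFNko TGFB1 KO 1, 3 without TGFB KO 1 or with the 60th percentile filter, 2 without TGFB KO 2, and 1 with array weights or a pseudocount of 1. Cd3g rose by 2.13 ± 0.28 and 4.14 ± 0.28, and Cd3e by 2.09 ± 0.35 and 3.28 ± 0.35. The summed signal of 11 T cell genes was 172 to 262 in WT, 883 to 1023 in TGFB KO, 147 to 239.9 in INFko TGFB+ and 2357 to 3739 in IFNko TGFB1 KO. Of 11 listed NK cell markers, 6 of which are among the 8 genes described here, 7 were tested, and 6 rose with Ifng present and 7 with Ifng deleted. Without the filter these counts were 5 and 7, where 7.57% and 7.89% of all genes rose. In IFNko TGFB1 KO against TGFB KO 1 of the 7, Klrd1, was higher and 0 were lower. Of the 17 surface genes 4 were higher there and 1 lower (2 and 1 without the array IFNko TGFB1 KO 1), and of the 10 macrophage markers 0 were called by limma. Of all genes 2.54% were higher and 2.82% lower. Differences between the lists were not tested. The summed signal of 10 NK cell genes was 332 to 375 in WT, 2249 to 2463 in TGFB KO, 253 to 317 in INFko TGFB+ and 2501 to 5523 in IFNko TGFB1 KO. The granule genes Gzma, with rises of 3.49 ± 0.33 and 4.19 ± 0.33, and Nkg7, with 2.30 ± 0.33 and 3.82 ± 0.33, are shared by NK cells and T cells. The listed NK markers Ncr1, Klra8 and Klre1 lay below the filter, and of T cell markers Trat1 did. Whether this strain carries Klra8 and Klre1 was not checked, so their dim signals are not read as few NK cells. Without the array IFNko TGFB1 KO 1 the counts with Ifng deleted were likewise 10 T cell genes, 7 NK cell genes, 10 macrophage genes and 10 surface genes. The part of T cells in the rise of the receptor genes was not tested.

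**Figure D4:**
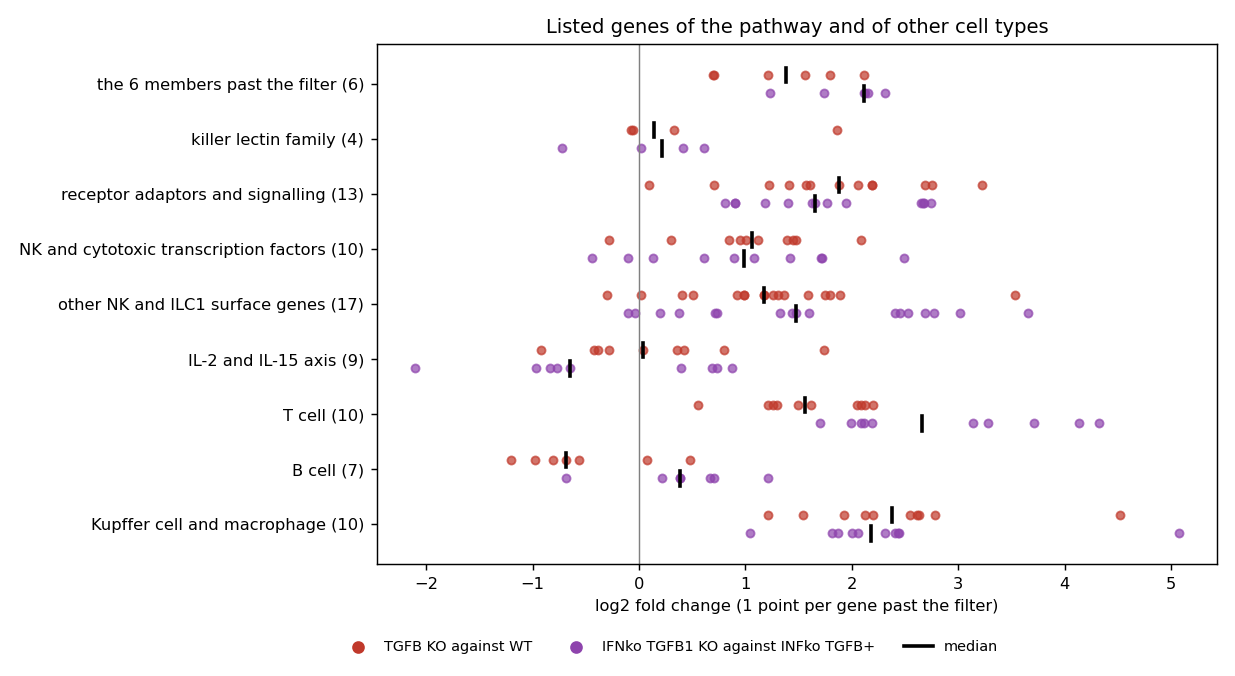
Log2 fold changes (x axis) of the tested genes of each list (rows, number of genes in brackets), with Ifng present (red) and deleted (purple). Points are genes and bars are medians. The receptor, adaptor, T cell and macrophage rows lie to the right of 0 in both comparisons, whereas the IL-2 and IL-15 axis centres at 0.03 and -0.65.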

How the data were processed

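Each of the 12 arrays, 1 mouse each, was read as deposited: linear signal intensity for 45101 probe sets, which the authors had scaled before deposit, since every array has the same mean, 150.001, without its lowest and highest 2%. The sources used here do not give the signal algorithm, and the labels give no scan date or batch. Of the probe sets, 34958 carried 1 gene symbol, 932 several and 9211 none. Of the probe sets with 1 symbol, 34754 were matched by gene identifier to RefSeq (GRCm38.p6) and took its symbol. Control probe sets (64) were left out.

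Groups follow the labels. Replicate 1 of INFko TGFB+ has no number in its title and took the number left over. Values were turned to log2(signal + 16) and quantile-normalized, which understates fold changes of dim genes. Probe sets with a mean under the 40th percentile (log2 5.25) were left out, and the brightest probe set stood for a gene. The fit used limma 3.58.1 in R 4.3.3 (lmFit with a mean per group over 12 arrays, eBayes, 8 residual and 3.44 prior degrees of freedom), two-sided, with Benjamini-Hochberg adjustment over 12755 genes and a threshold of 0.05. The fit was tested on simulated data. P-values rest on 3 mice per group. Ncr1 was read from the same fit without the filter.

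The genes, the gene lists and the motifs were chosen with earlier results of these data known. Named are the receptor genes, Tgfb1 and Ifng, up to 4 genes of each list with the smallest p in TGFB KO against WT and in IFNko TGFB1 KO against INFko TGFB+, and the 3 genes most correlated with each receptor gene, without symbols of predicted, clone or accession type or starting with Gm. H60c, Ulbp1, Stat5b, Hcst, Zap70, Klra8, Klre1, Klrc2, Klrc3 and Trat1 were named outside this rule, after their values were seen. So were Itga1, Itga2, Cd96, Cd160, Cd226, S1pr5 and Il12rb2. Alternatives were no filter and a 60th percentile filter, deposited scaling, median centring, pseudocounts of 1 and 64, the mean of all probe sets, the replicate number as a block, only the groups compared, array weights, an intensity trend and leaving out each array.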

Additional observations from a re-analysis of the deposited data

Results flagged for a closer look

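By the test of the difference itself, the effect of Tgfb1 loss was called different between the Ifng backgrounds for 2 of the genes named. Of all genes 0.87% were called. Both genes were named by their p-values in the 2 comparisons that make up this difference. Cd3g rose more with Ifng deleted, by 2.01 on the log2 scale (limma adjusted p = 0.0415), a call lost in 13 of 22 alternatives with adjusted p from 0.00463 to 0.141. Cxcr6 rose more with Ifng deleted, by 2.29 (limma adjusted p = 0.0293), a call lost in 11 of 22 alternatives with adjusted p from 0.00169 to 0.103. Without the array IFNko TGFB1 KO 1 both calls were lost, at 1.91 for Cd3g and 2.21 for Cxcr6 (limma adjusted p = 0.0877 and 0.0644). Neither of them is a killer receptor gene, and none of the 6 receptor genes tested passed this test.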

How the results depend on the processing

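Over all comparisons of the receptor genes, 706 alternative values kept the direction and side of the threshold of the reported ones, 14 came to pass it, 19 no longer passed it, and 0 reversed a called direction. The count of genes called in TGFB KO against WT fell from 5 to 3 with the 60th percentile filter, which left 3 of the genes to test, and was 3 to 5 with 1 array left out (3 without WT 2 or TGFB KO 3). In IFNko TGFB1 KO against INFko TGFB+ the count was 3 with that filter and 6 with any array left out. The difference of the effects was called for 1 gene, Klrd1, with the 60th percentile filter, deposited scaling, a pseudocount of 64 or array weights, and for 0 to 1 with an array left out (1 without IFNko TGFB1 KO 2). In IFNko TGFB1 KO against TGFB KO the count of 1 became 3 with deposited scaling or a pseudocount of 64 (Klrd1, Klrg1 and Eomes), 0 with only the groups compared, and 1 to 2 with an array left out (2 without WT 1, WT 3, TGFB KO 3 or IFNko TGFB1 KO 1). INFko TGFB+ against WT stayed at 0 in each. With a pseudocount of 64 the changes of the 6 genes tested in TGFB KO against WT were 0.31 to 1.45, and with 1 they were 0.85 to 3.23. The causes were not tested, beyond the fewer genes the stricter filter leaves.

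Of 18 same-numbered pairs of arrays 4 had deviations correlated over 0.1 (-0.0771 to 0.343), among them all 3 pairs of WT 3, TGFB KO 3 and IFNko TGFB1 KO 3. Pairs of unlike number ran from -0.231 to 0.202. Since not every same-numbered pair was over 0.1, the numbers were not taken to pair the samples. Whether WT 3, TGFB KO 3 and IFNko TGFB1 KO 3 shared a step of processing was not tested. With the replicate block 3051 genes were called in TGFB KO against WT, beside 3077, and of the receptor genes Klrd1 lost its call there (adjusted p = 0.0597). Median centring moved the median of all genes in the difference of the effects to -0.25 and in IFNko TGFB1 KO against INFko TGFB+ to -0.15. It turned the split of 1619 genes higher and 1673 lower there into 987 and 1865, that of 1553 and 1524 in TGFB KO against WT into 1448 and 893, and that of 324 and 360 in IFNko TGFB1 KO against TGFB KO into 100 and 388, and changed no call of a receptor gene. Trying Ncr1 with each array left out, the other probe sets, and the listed genes and their counts under each setting was chosen after seeing the data. With its probe sets averaged, Zap70 turned to -0.592 in TGFB KO against WT, where it was then called lower (limma adjusted p = 0.0465). It turned to -0.0154 in IFNko TGFB1 KO against INFko TGFB+. Array brightness limits what can be seen of Ncr1, Klrc1 and the Klra genes.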

Other observations

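Markers of neutrophils and monocytes, B cells and hepatocytes were counted in the same way, beside 12.2% of all genes that rose and 11.9% that fell with Ifng present, and 12.7% and 13.1% with Ifng deleted. Of 9 listed neutrophil and monocyte genes 8 were tested, and 7 rose with Ifng present (4 without WT 3, TGFB KO 1 or TGFB KO 2) and 5 with Ifng deleted (3 without INFko TGFB+ 2 or IFNko TGFB1 KO 2, and 7 without IFNko TGFB1 KO 1). Ccr2, the homing receptor of inflammatory monocytes, rose by 2.64 ± 0.20 and 2.99 ± 0.20 (limma adjusted p = 7.4e-06 and 6.99e-06). Of 7 B cell genes tested 0 were called with Ifng present by limma, and their median change was -0.69. Pax5 stood at -1.20 (limma adjusted p = 0.0506) and passed in 6 of 21 alternatives. Without IFNko TGFB1 KO 1 2 genes were called lower there, Pax5 and Fcrla (limma adjusted p = 0.0268 and 0.042). With Ifng deleted 1 gene, Cd22, rose (1.21 ± 0.39, limma adjusted p = 0.0415). That call was lost in 13 of 23 alternatives (limma adjusted p = 0.0139 to 0.141), among them leaving out any 1 array other than WT 1, WT 3 or IFNko TGFB1 KO 1. Without IFNko TGFB1 KO 1 the count of rises with Ifng deleted was 2. The 1 of 7 with all arrays is near the share of all genes. Of 9 hepatocyte genes tested 1 fell with Ifng present (3 without IFNko TGFB1 KO 2 or 3) and 5 with Ifng deleted (3 without WT 1, WT 2, TGFB KO 1, TGFB KO 2, IFNko TGFB1 KO 2 or any 1 INFko TGFB+ array, and 4 without IFNko TGFB1 KO 1). The 1 of 9 with Ifng present is near the share of all genes. Cyp2e1, a cytochrome of hepatocytes around the central vein, fell by 1.95 with Ifng present (limma adjusted p = 0.0171), a call lost without TGFB KO 1 (limma adjusted p = 0.0688). With Ifng deleted it fell by 2.17 (limma adjusted p = 0.00947).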
